A study of Mus musculus with 12 samples.

Results

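Expression of 10 germline genes was followed on mouse Affymetrix arrays of leukaemia cells and thymocytes with and without Mbd2. The genes are Sycp1, Sycp3, Dazl, Ddx4, Mael, Stk31, Tex15, Brdt, Tex101 and Rpl10l, chosen by name as genes whose promoters are known to be silenced by DNA methylation outside the germline. Every probe set that the array annotation gives to 1 of these genes alone was taken, which gave 13 probe sets for 9 of the 10 genes, out of 34945 single-gene probe sets for 18193 genes. Rpl10l had no match and was not analysed here. Dazl and Stk31 each had 2 probe sets, Brdt had 3, and the other genes had 1. 

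The 12 arrays fell into 4 groups of 3. The leukaemias were T-cell acute lymphoblastic leukaemias (T-ALL) driven by Notch1 in transplanted mice, with either the MBD2 wild type (MBD2+/+) or the MBD2 deletion (MBD2-/-) genotype. Their GFP+ cells were sorted from bone marrow once GFP+ cells made up over 50% of the white cells of the blood. The other groups were CD4+CD8+ double-positive (DP) thymocytes sorted from steady-state MBD2+/+ or MBD2-/- mice. The sources used here do not give strain, age, sex, whether samples were pooled, or whether the deletion was limited to some cell types. Nothing says that the 3 samples of a group came from separate mice, so each p-value reflects only how far these samples spread, which may be technical.

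Germline genes of this kind carry CpG-rich promoters that are methylated early in embryonic development and stay methylated in somatic cells. MBD2 is a methyl-CpG binding protein that recruits the NuRD chromatin remodelling and deacetylase complex to methylated DNA. A second repressor of the same genes, the Polycomb complex PRC1.6, reaches their promoters through E2F6, which binds E2F sites, and through the MGA and MAX pair, which binds E-boxes. The comparison of genotypes asks whether the germline genes became expressed without Mbd2.

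The promoters are shown because CpG content is what the members share beyond their expression in germ cells, and because several hold motifs of their repressors. RefSeq promoter windows (GRCm38.p6, 250 bases before to 50 after the start) were found for 9 of the 10 genes, with 2 windows for Stk31, 10 in all. The table held none for Tex15. The 10 windows held 13 to 38 CpG dinucleotides, with a median of 23.5 against 7 over all 32851 windows. The ratio of observed to expected CpG lay between 0.643 and 0.978 in these windows, with a median of 0.765 against 0.384 over all. It was above 0.6 in 10 of 10 windows and in 35.8% of all windows. Below, the 250 bases before the start are given 5′ to 3′ on the strand of the gene, with E-boxes (CACGTG) and E2F6 sites (GCGGGA, or TCCCGC where it lies on the other strand) in capitals. Sycp3 (chr10:88459337-88459586, plus strand), Mael (chr1:166238745-166238994, minus strand) and Sycp1 (chr3:102936101-102936350, minus strand) hold at least 1 of these motifs, and Dazl (chr17:50293621-50293870, minus strand) is a CpG-rich promoter with neither.
Sycp3: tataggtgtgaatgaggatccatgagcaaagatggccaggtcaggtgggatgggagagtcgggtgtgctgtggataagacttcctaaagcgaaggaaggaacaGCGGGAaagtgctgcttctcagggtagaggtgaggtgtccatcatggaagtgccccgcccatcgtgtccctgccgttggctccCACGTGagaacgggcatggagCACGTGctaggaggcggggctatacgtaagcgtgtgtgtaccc
Mael: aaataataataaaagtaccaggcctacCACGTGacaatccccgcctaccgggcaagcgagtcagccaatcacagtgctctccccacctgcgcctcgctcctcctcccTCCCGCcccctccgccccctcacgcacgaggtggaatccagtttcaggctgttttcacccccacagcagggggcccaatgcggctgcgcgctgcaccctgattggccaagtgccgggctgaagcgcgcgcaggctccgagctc
Sycp1: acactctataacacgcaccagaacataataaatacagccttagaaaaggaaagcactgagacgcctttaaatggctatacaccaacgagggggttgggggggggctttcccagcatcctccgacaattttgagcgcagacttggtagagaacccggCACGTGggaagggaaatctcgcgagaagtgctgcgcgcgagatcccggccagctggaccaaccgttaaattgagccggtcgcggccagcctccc
Dazl: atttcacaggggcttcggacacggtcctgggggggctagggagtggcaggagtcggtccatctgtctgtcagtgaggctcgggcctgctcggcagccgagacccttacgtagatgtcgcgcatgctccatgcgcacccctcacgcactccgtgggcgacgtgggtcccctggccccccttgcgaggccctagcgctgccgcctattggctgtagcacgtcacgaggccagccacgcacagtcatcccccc
The E-box CACGTG, searched on both strands, occurred in the windows of 6 of the 9 genes (Sycp1, Sycp3, Mael, Ddx4, Brdt and Stk31) and in 7.15% of all windows. The E2F6 site GCGGGA, on either strand, occurred in 5 (Sycp1, Sycp3, Mael, Ddx4 and Rpl10l) and in 19.98% of all windows. The 2 motifs share no letters by overlap in any of these windows. The Sycp3 window holds both kinds, with E-boxes that begin 64 and 43 bases before the start and an E2F6 site 147 bases before it. In Sycp1 the E2F6 site begins at base 3 after the start, outside the bases printed. The CREB site TGACGTCA, on either strand, was in none of the member windows and in 1.79% of all. These are matches of letters and not measured binding, and no methylation was measured in these samples.

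The deposited intensities were comparable between arrays, with log2 medians of 5.71 to 5.79, and arrays of a group correlated at 0.976 to 0.993. Added poly-A control transcripts gave signal on 5 arrays (wild-type T-ALL 1 and 2, deletion T-ALL 1, wild-type DP 1 and 2) and none on the other 7, which include all 3 deletion DP arrays. The ratio of Gapdh signal from its 3′ and 5′ probe sets, a measure of RNA length, ran from 0.964 to 3.68. Xist, the transcript of the inactive X, was at 3846 to 4819 in the wild-type leukaemias and at 28.7 to 45.7 on the other 9 arrays, while Eif2s3y of the Y chromosome was at 7.01 to 7.59 in the wild-type leukaemias and at 189 to 574 elsewhere. In the leukaemias, sex-linked expression and Mbd2 genotype therefore cannot be told apart, and nor can sex-linked expression and cell type between the wild-type groups. Of 15 matched T-lineage markers, 13 were above background on all wild-type leukaemia arrays, 12 on all deletion leukaemia arrays and 15 on all arrays of each thymocyte group. Of 10 spermatid and late germ cell markers, 9 were at background on every array and 1, Prm1, was above it on all. In bulk samples, fewer cells expressing a gene and less RNA per cell cannot be told apart.

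The targeted gene bore out the labels. The Mbd2 probe set 1417165_at fell from 820 ± 119 to 54.4 ± 12.4 in T-ALL (mean intensity ± SD, n = 3) and from 1136 ± 206 to 72.1 ± 10.7 in thymocytes. The log2 differences were -3.58 (limma adjusted p = 5.79e-05) and -3.70 (limma adjusted p = 0.00268). The other Mbd2 probe set, 1425803_a_at, was lower without overlap in both, by log2 differences of -3.47 (limma adjusted p = 0.0118) and -3.08, but the latter did not pass the threshold (limma adjusted p = 0.36), with wild-type thymocytes spread from 110.2 to 453.6.

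Most of the germline genes had no measurable signal in any group, with or without Mbd2. Background was set at 35.3, the highest intensity of control probe sets for bacterial transcripts: trpn on all arrays, and the added poly-A transcripts on the 7 arrays where they gave no signal. Of the 13 probe sets, 10 were below this level on all 12 arrays, and 7 genes (Sycp1, Sycp3, Dazl, Ddx4, Mael, Stk31 and Tex101) had no probe set above it. Their intensities ran from 3.67 to 13.2 with a median of 5.86. The control probe sets themselves ran from 4.26 to 35.3 with a median of 9.05. Over the whole array, 12618 of 34945 single-gene probe sets (36.1%) were below background on every array and 46.6% were above it on every array. A stricter level, the highest trpn control at 13.5, gave the same 10 probe sets.

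**Figure D1:**
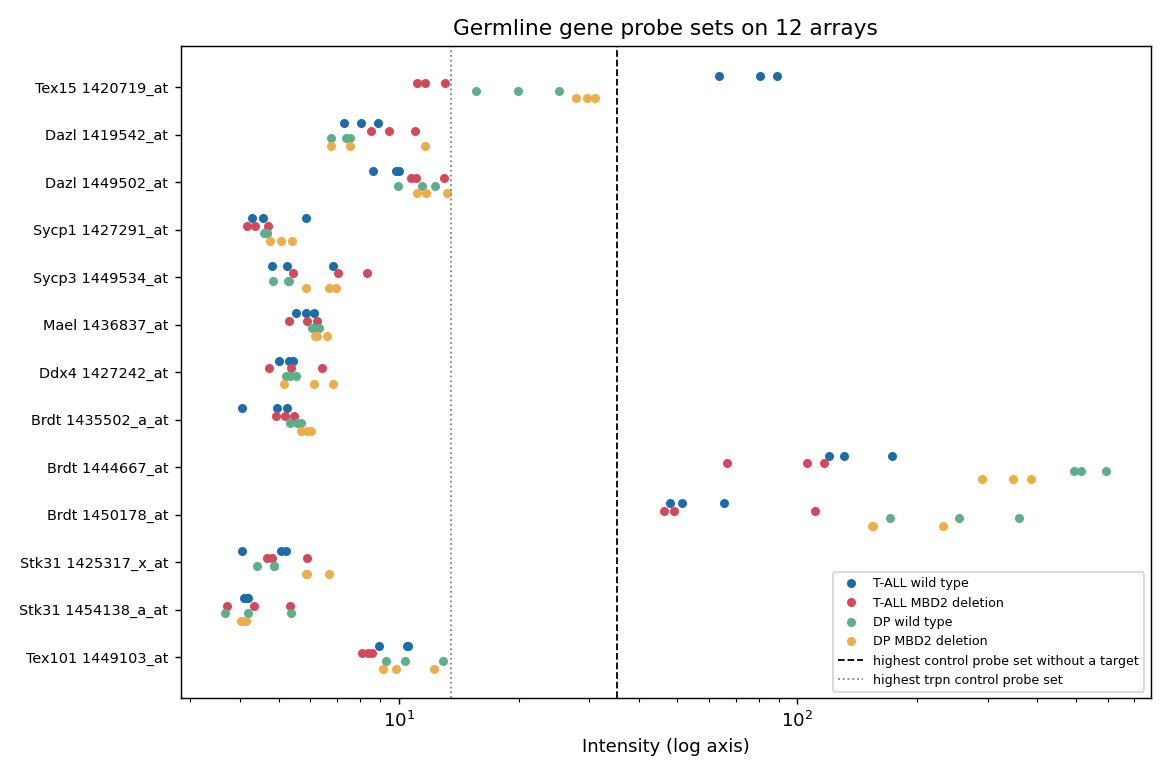
Intensity (log axis) of each of the 13 germline gene probe sets on the 12 arrays, 1 point per array, coloured by group; the dashed line is background (35.3) and the dotted line the highest trpn control (13.5). Tex15 lies to the right of the dashed line only in wild-type T-ALL, 2 of 3 Brdt probe sets lie to its right in all groups, and the other 10 probe sets lie left of the dotted line on all arrays.

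The synaptonemal complex genes were at background. Sycp1, which encodes the transverse filament that holds paired chromosomes together, was at 4.30, 4.56 and 5.87 in wild-type T-ALL and at 4.16, 4.69 and 4.35 in deletion T-ALL. In thymocytes it was at 4.66, 4.66 and 4.58 with Mbd2 and at 5.06, 5.40 and 4.76 without it. The thymocyte groups did not overlap, but all 6 values lie within the range of the controls. Sycp3, a component of the axial and lateral elements, was at 4.81, 5.25 and 6.84 in wild-type and at 7.04, 5.44 and 8.30 in deletion leukaemias, which overlapped. In thymocytes it was at 4.84, 5.27 and 5.30 with Mbd2 and at 6.96, 6.68 and 5.85 without it, which did not overlap, again below background.

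The genes of germ cell RNA control were also at background. Dazl encodes an RNA-binding protein that promotes translation in germ cells. Its probe set 1449502_at was at 10.0, 9.86 and 8.61 in wild-type T-ALL and at 11.1, 10.7 and 13.0 in deletion T-ALL. These groups did not overlap. The other Dazl probe set, 1419542_at, overlapped between them, with 7.30 to 8.86 against 8.51 to 11.01. Ddx4, the RNA helicase also known as Vasa, lay between 4.71 and 6.84 over all arrays. Mael, which acts in piRNA-guided silencing of transposons, lay between 5.32 and 6.61. Stk31, a germ cell protein with Tudor and kinase domains, lay between 4.04 and 6.67 on 1425317_x_at and between 3.67 and 5.36 on 1454138_a_at. On the first of these the deletion thymocytes, at 6.67, 5.85 and 5.89, did not overlap the wild-type ones at 4.42, 4.86 and 4.86. On the second they did overlap, so the probe sets disagree. Tex101, which encodes a surface glycoprotein of germ cells, was at 10.5, 10.6 and 8.90 in wild-type T-ALL and at 8.57, 8.08 and 8.38 in deletion T-ALL, here lower and without overlap.

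In the test of MBD2 deletion, none of these 10 probe sets passed the threshold of an adjusted p of 0.05 in either cell type. Since they are too dim for the filter on low values, they were tested in a limma fit of all 34945 single-gene probe sets without it. That fit called 9.58% of all probe sets in T-ALL and 0.00858% in thymocytes. In T-ALL the log2 differences of the 10 lay between -0.09 and 0.11, the highest upper 95% confidence limit was 0.27 and the lowest adjusted p was 0.358. In thymocytes they lay between -0.02 and 0.10, the highest upper limit was 0.30 and the lowest adjusted p was 0.998. No unadjusted p was under 0.05 in either. On the log2(value + 16) scale used, a probe set at background can show little movement, so these limits apply to intensities and not to transcript numbers. Without overlap, 1 of the 10 was higher and 1 lower in deletion T-ALL, against 4.83% higher and 11.9% lower among all probe sets with no array above background. In thymocytes 4 were higher without overlap (Sycp1, Sycp3, Brdt 1435502_a_at and Stk31 1425317_x_at) and 0 lower, against 5.18% and 3.35%. All 4 stayed between 4.76 and 6.96 in the deletion thymocytes, and poly-A control signal was present on 2 of 3 wild-type and 0 of 3 deletion thymocyte arrays. Its part in these shifts was not tested.

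These 10 probe sets were not called between cell types either. The log2 differences of T-ALL minus thymocytes lay between -0.10 and 0.05 with Mbd2 (lowest adjusted p 0.373, 22.8% of all probe sets called) and between -0.12 and 0.06 without it (lowest adjusted p 0.317, 20.9% called). With Mbd2, 0 were higher and 1 was lower in T-ALL without overlap, against 12.5% and 6.26% among probe sets at background. Without it, 0 were higher and 3 (Sycp1, Tex101 and Brdt 1435502_a_at) were lower, against 7.31% and 12%. For the difference of the deletion effects the lowest adjusted p was 0.678, where 7.48% of all probe sets were called.

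**Figure D2:**
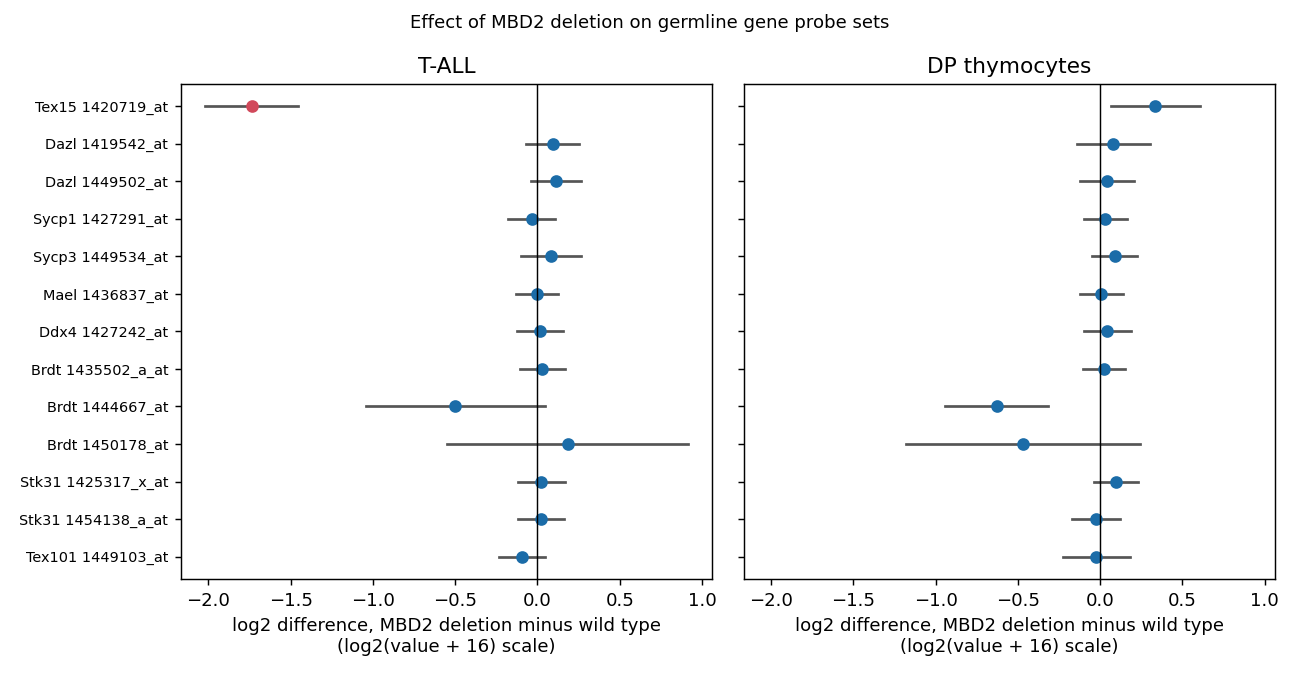
Log2 difference, MBD2 deletion minus wild type, of each germline gene probe set in T-ALL (left) and DP thymocytes (right), with bars for the 95% confidence interval of the limma fit without a filter on low values (3 arrays per group); red marks an adjusted p under 0.05. Tex15 in T-ALL, at -1.74, is the only red point, and the 10 probe sets at background lie between -0.09 and 0.11 in T-ALL and between -0.02 and 0.10 in thymocytes.

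Crossings of the background level were counted as well. Of the 10 member probe sets below 35.3 on all wild-type T-ALL arrays, 0 were above it on all deletion T-ALL arrays, compared with 486 of 14495 single-gene probe sets (3.35%). From wild-type to deletion thymocytes it was 0 of 11 members and 27 of 14603 probe sets (0.185%). In the other direction, 1 of the 3 members above background on all wild-type T-ALL arrays, Tex15, was below it on all deletion arrays, compared with 308 of 18369 probe sets (1.68%). These shares were not matched for intensity, which had a median of 6.67 in the members and 46.1 over all single-gene probe sets.

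Tex15 was the one member called between genotypes, and only in T-ALL, where it was lower without Mbd2. Tex15 is needed for meiotic recombination and for piRNA-directed silencing of transposons in the male germline. Its probe set 1420719_at was at 63.5, 89.1 and 80.4 in wild-type T-ALL, at 13.1, 11.1 and 11.7 in deletion T-ALL, at 25.3, 19.9 and 15.6 in wild-type thymocytes and at 27.8, 29.6 and 31.2 in deletion thymocytes. Only the 3 wild-type leukaemias were above background, and they overlapped no other array. Against the highest trpn control alone (13.5), 9 arrays were above the level, including all 3 of each thymocyte group. The 3 deletion leukaemias were below both levels. Whether thymocytes had Tex15 signal therefore depends on the level chosen. The deletion leukaemias were the lowest 3 of the 12.

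In T-ALL the Tex15 signal fell by 1.74 on the log2 scale (SE 0.13, 95% interval -2.04 to -1.43, limma adjusted p = 0.000342). The means were 77.7 ± 13.0 and 11.9 ± 1.01 (SD, n = 3). Because the deletion group is below background, this is reported as at least 2.18-fold lower, the mean of the bright group against the background level. Tex15 was 1 of the 3 member probe sets that passed the filter on low values, and the only one of these called in this comparison. Over all 28372 probe sets tested, 12.9% were called, 7.64% higher and 5.26% lower. With arrays centred on their 75th percentile, which moved the median of all probe sets from -0.05 to -0.12, the higher calls made up 46.8% of all calls in place of 59.2%, while the Tex15 difference was -1.81. The fall was present within both sets of arrays defined by the poly-A controls, with 63.5 and 89.1 against 13.1 where they gave signal and 80.4 against 11.1 and 11.7 where they gave none. Myeloid markers moved in the same direction. Of 12, 6 were above background on all wild-type leukaemia arrays and 3 on all deletion arrays, 5 and 6 were above it on none, and their summed intensity was 1050 to 1898 against 369 to 881. T-lineage markers summed to 28580 to 37000 against 19930 to 22890, but not as a whole: 7 of 15 (Thy1, Cd8a, Cd8b1, Cd2, Cd4, Ptcra and Rag1) were lower without overlap in deletion leukaemias, while the means of 7 others, Cd3d, Cd3e and Bcl11b among them, were higher there with overlap. Of 5 erythroid markers, 3 were above background on all wild-type leukaemia arrays and 1 on all deletion arrays, and their sums were 178.5 to 294 against 177.5 to 201.4. Slc4a1 and Alas2 were lower without overlap in deletion leukaemias, while Klf1 was higher without overlap. The means of all 10 spermatid and late germ cell markers were lower in deletion leukaemias, but only Spata16 and Acrv1 were lower without overlap. Their sums were 203 to 234.2 against 183.4 to 207.5, and 9 of the 10 were at background in both leukaemia groups. The thymic stroma and B cell lists had higher sums in the deletion leukaemias, but not as a whole. The 8 thymic stroma markers summed to 210.1 to 222.2 in wild-type and 413 to 560.1 in deletion leukaemias. Only Epcam and Col1a1 among them were higher without overlap. The 7 B cell markers summed to 153.4 to 168.7 and 202.9 to 273.1. Cd79b and Vpreb1 were higher without overlap, while Cd79a was lower without overlap. The part of these markers in the Tex15 result was not tested, and genotype and sex-linked expression cannot be told apart in it.

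In thymocytes Tex15 was higher in all 3 deletion arrays than in all 3 wild-type arrays, with a log2 difference of 0.34 (SE 0.12, 95% interval 0.04 to 0.63), but it did not pass the threshold (limma adjusted p = 0.983). All 6 values lie below background, though above the highest trpn control. This comparison called 3 of 28372 probe sets (0.0106%), with 4.41% at an unadjusted p under 0.05, and 3.93% were higher without overlap. The deletion effect on Tex15 differed between the cell types by -2.07 (SE 0.18, limma adjusted p = 2.05e-05), where 9.63% of probe sets were called, 6.26% higher and 3.38% lower. With arrays centred on the 75th percentile, 49.6% of those calls were higher in place of 65.0%. Between cell types, wild-type T-ALL was higher than wild-type thymocytes by 1.37 (SE 0.15, limma adjusted p = 0.000966), at least 2.18-fold, in a comparison that called 29.7% of probe sets (16.2% higher, 13.6% lower). Deletion T-ALL was lower than deletion thymocytes by a log2 difference of -0.70 (SE 0.09, limma adjusted p = 0.00182), where 27.3% were called (15.6% higher, 11.6% lower). No fold is given for the latter because both groups are below background. The order of the 4 groups was thus wild-type T-ALL, deletion DP, wild-type DP and deletion T-ALL. The middle pair did not pass the test against each other, and the first pair and the last pair were not tested.

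Brdt had signal in every group by 2 of its 3 probe sets and was higher in thymocytes than in leukaemia. BRDT is the testis member of the BET bromodomain family, which binds acetylated histones. The probe set 1444667_at was at 120.0, 130.9 and 172.5 in wild-type T-ALL and at 105.6, 116.8 and 66.6 in deletion T-ALL. In thymocytes it was at 595.7, 514.4 and 494.9 with Mbd2 and at 290.5, 386.4 and 348.0 without it. Every thymocyte array was above every leukaemia array, and within each cell type all deletion arrays were below all wild-type arrays. The probe set 1450178_at, the only Brdt probe set whose annotation cites a RefSeq transcript, was at 65.4, 48.0 and 51.5 in wild-type T-ALL and at 110.6, 49.2 and 46.3 in deletion T-ALL. In thymocytes it was at 359.4, 254.8 and 171.0 with Mbd2 and at 154.4, 154.1 and 232.1 without it. Here the cell types did not overlap, and the genotypes overlapped in both. The third probe set, 1435502_a_at, was at 4.05 to 6.03 on all arrays. The Brdt probe sets therefore disagree on whether the gene is expressed, and which transcripts each one reads was not analysed here.

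Between cell types, Brdt 1444667_at was lower in T-ALL by a log2 difference of -1.82 with Mbd2 (SE 0.15, limma adjusted p = 0.000323) and of -1.69 without it (SE 0.20, limma adjusted p = 0.00111). For 1450178_at the differences were -1.92 (SE 0.25, limma adjusted p = 0.00195) and -1.27 (SE 0.30, limma adjusted p = 0.0193). The last did not pass without deletion T-ALL array 2 (adjusted p = 0.0591), deletion DP array 2 (0.0504) or deletion DP array 3 (0.0651). Summed T-lineage markers were also lower in leukaemia, at 28580 to 37000 against 60570 to 77070 with Mbd2 and at 19930 to 22890 against 57460 to 74170 without it. Their part in the Brdt result was not tested. Over the 12 log2 values the 2 probe sets correlated at r = 0.89, but within the 6 T-ALL arrays r was -0.03 and within the 6 thymocyte arrays 0.69, given as a description of arrays that share their cell type.

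Neither Brdt probe set passed the threshold for MBD2 deletion. In T-ALL the log2 difference was -0.50 for 1444667_at (95% interval -1.01 to 0.01, limma adjusted p = 0.202) and 0.18 for 1450178_at (-0.49 to 0.86, limma adjusted p = 0.755). In the latter, deletion T-ALL array 1 at 110.6 set the sign, and without it the difference was -0.15. In thymocytes the differences were -0.63 (95% interval -0.95 to -0.30, unadjusted p = 0.00272, limma adjusted p = 0.952) and -0.47 (-1.12 to 0.19, limma adjusted p = 0.983). In thymocytes 4.49% of probe sets were lower without overlap, as 1444667_at was, and 16.9% were in T-ALL, with 14.3% higher. For 1450178_at the only wild-type thymocyte array without poly-A signal, at 171.0, lay within the deletion range of 154.1 to 232.1, and the difference was 0.0455 once the poly-A set was fitted as a block. For 1444667_at the same array, at 494.9, was above all 3 deletion arrays. The effect of deletion was not shown to differ between cell types, with an estimate of 0.13 for 1444667_at (95% interval -0.46 to 0.72, limma adjusted p = 0.848) and of 0.65 for 1450178_at (95% interval -0.3 to 1.597, limma adjusted p = 0.461).

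**Figure D3:**
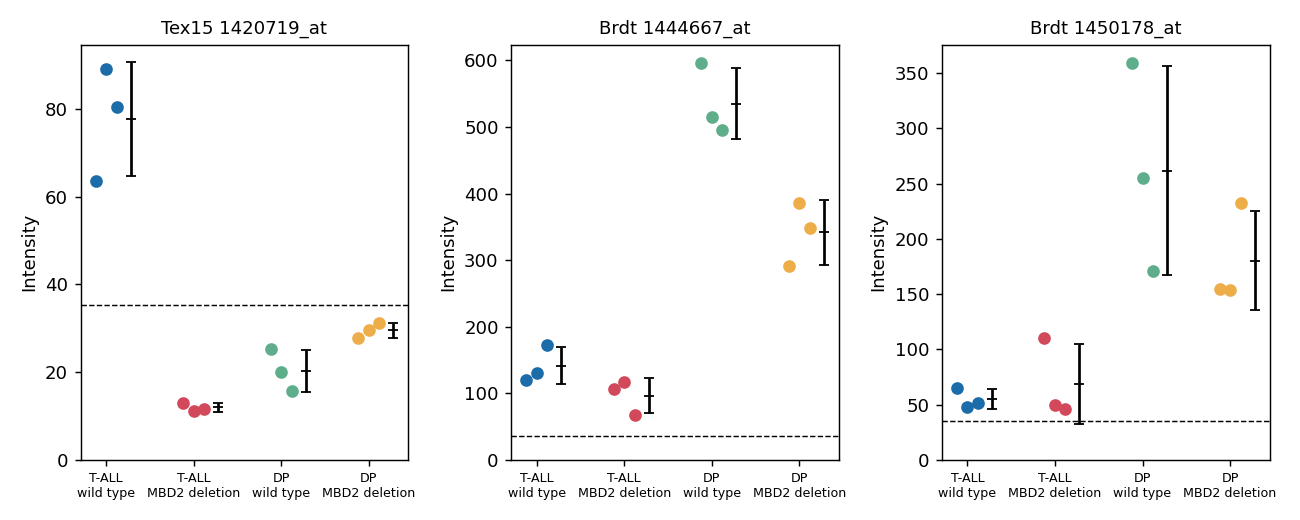
Intensity (linear axis from 0) of Tex15 and of the 2 Brdt probe sets with signal, 1 coloured point per array in each group, with the group mean and SD as a black bar (n = 3) and background (35.3) as a dashed line. Tex15 exceeds the line only in wild-type T-ALL (63.5 to 89.1), and both Brdt probe sets are higher in thymocytes than in T-ALL, with overlapping genotypes for 1450178_at.

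By Pearson r of log2 values over the 12 arrays, the probe sets most like Tex15 were those of Myo5a (0.97), Lgalsl (0.97) and Plxna1 (0.97). Myo5a, an actin-based motor, was at 180 to 266 in wild-type T-ALL, 11.04 to 16.5 in deletion T-ALL, 31.0 to 58.7 in wild-type and 40.6 to 47.3 in deletion thymocytes. The nearest to Brdt 1444667_at were Socs3 (0.99), P2rx1 (0.98) and Myo18a (0.97), and the nearest to 1450178_at were Dnajc1 (0.98), Cnst (0.98) and Arap2 (0.97). The 12 points share their groups, and these values are descriptions.

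A wider list of 106 germline genes (meiotic chromosome axis and recombination, piRNA pathway, RNA binding, transcription, cytoskeleton and surface, and X-linked cancer-testis genes) was read in the same way. It matched 102 probe sets of 82 genes, of which 80 probe sets (78.4%) and 62 genes were at background on every array, against 36.1% of all probe sets. After the filter on low values 60 probe sets of 54 genes were tested. MBD2 deletion in T-ALL called 2 genes higher and 6 lower (13.3% of these probe sets, against 12.9% over the array), with a median log2 difference of -0.04 against -0.05 over all tested. In thymocytes it called 0, with 0.0106% called over the array. Of the 86 probe sets at background in wild-type T-ALL, 1 was above it on all deletion arrays, that of Stag3 (1.16%, against 3.35% over the array). In the other direction 3 of 14, those of Tex14, Ybx2 and Pld6, went from above background on all wild-type arrays to below it on all deletion arrays (21.4%, against 1.68% over the array). The shares of crossings were not matched for intensity, which had a median of 14.4 in the list and 46.1 over all single-gene probe sets. They therefore do not show whether the list lost signal more often than probe sets of like brightness. Tex14 and Pld6 were named after their values were seen.

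Of the 8 called probe sets, Piwil2 alone would not have passed the filter without the arrays of its brighter group, and 6 of the 8 were called in the fit without a filter. The 2 genes that rose in deletion T-ALL were Stag3 and Nobox. Stag3, a meiotic cohesin subunit, was at 14.7, 12.1 and 14.2 in wild-type and at 35.5, 52.3 and 35.6 in deletion leukaemias, a log2 difference of 0.94 (SE 0.14, limma adjusted p = 0.00634), at least 1.15-fold. Its deletion values stand just above background, and thymocytes held like levels of 22.0 to 45.0 with Mbd2 and 38.8 to 50.3 without it. Nobox, an oocyte homeobox factor, was at 18.8 to 24.2 against 31.0 to 44.1 (log2 difference 0.56, SE 0.13, limma adjusted p = 0.0352), with 2 of 3 deletion arrays above background. The sums of the thymic stroma and B cell markers given above were higher in the same arrays, through some of their genes only. Their part in the Stag3 and Nobox results was not tested.

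Of the 6 genes called lower in deletion T-ALL, the 4 with the largest differences among those without overlap were Ybx2, Tdrkh, Stra8 and Piwil2. Ybx2, a germ cell RNA-binding protein, was at 56.6, 106.1 and 74.1 in wild-type and at 30.2, 34.8 and 26.8 in deletion T-ALL, a log2 difference of -0.997 (SE 0.20, limma adjusted p = 0.0202), at least 2.17-fold lower. Tdrkh, a Tudor protein of piRNA processing, fell from 174.6 ± 28.4 to 94.0 ± 25.5 (log2 difference -0.81, SE 0.19, limma adjusted p = 0.0401; 0.0625 without the filter). Stra8, the retinoic acid responsive gene of meiotic entry, fell from 159.0 ± 13.0 to 97.8 ± 21.9 (log2 difference -0.64, SE 0.16, limma adjusted p = 0.0488; 0.0669 without the filter). The last 2 were therefore not called once dim probe sets were included in the test. Piwil2, a PIWI protein, was at 25.2 ± 1.48 and 11.2 ± 0.497, with all 12 arrays below background. It passed the filter through the 3 wild-type leukaemias and 1 deletion thymocyte array, that is, by the group where it is high, so its filtered test is not given. In the fit without a filter the log2 difference of -0.60 had a limma adjusted p of 0.00291, and no fold is given.

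The cell types were compared over the same list. Wild-type T-ALL differed from wild-type thymocytes in 7 genes higher and 5 lower (23.3% of the tested probe sets, against 29.7% over the array), and deletion T-ALL from deletion thymocytes in 4 higher and 6 lower (20.0%, against 27.3%). Of the called probe sets, 1 of 14 in the first comparison and 2 of 12 in the second passed the filter only through their brighter group. In the fit without a filter, all 14 and all 12 were called. Tdrd5, a Tudor protein of the germ cell nuage, was at 712.6, 1012 and 339.7 in wild-type and 470.0, 685.6 and 712.2 in deletion thymocytes, and at 17.8 to 27.5 in all 6 leukaemias, at least 17.8-fold and 17.4-fold lower. Spo11, which makes the DNA breaks of meiotic recombination, was at 1224, 1487 and 820.6 in wild-type thymocytes and at 213.0, 119.8 and 99.2 in wild-type T-ALL, 8.39-fold lower (log2 difference -2.92, SE 0.31, limma adjusted p = 0.000826). Its deletion values were 596.3, 1258 and 1264 in thymocytes and 258.0, 221.5 and 60.2 in T-ALL, 6.51-fold lower (log2 difference -2.55, SE 0.53, limma adjusted p = 0.0111). Dmc1, the meiotic recombinase, was below background on most arrays. Its probe set 1449819_at was at 25.95 to 45.2 in wild-type and 17.4 to 48.7 in deletion thymocytes and at 6.11 to 7.78 in leukaemias, where it never passed the limit of the filter. The other, 1420335_at, was below background on all arrays. Both were called between cell types, but 1449819_at passed the filter through the thymocytes alone, where it is high. In the fit without a filter its limma adjusted p was 0.00363 with Mbd2 and 0.0353 without it. For 1420335_at these were 0.00983 and 0.0102. The lower bounds on the fold of the 2 probe sets were 0.6635 to 1.046, so no fold is given. Syce2, of the synaptonemal central element, was higher in T-ALL, at 1704 to 1898 against 367 to 515 in the wild-type groups (log2 difference 1.94, SE 0.15, limma adjusted p = 0.00025). In the deletion groups it was at 850.8 to 2074 against 685.4 to 767.1, which did not pass the threshold (log2 difference 1.03, limma adjusted p = 0.051). Cpeb1, a regulator of mRNA polyadenylation, was at least 7.35-fold higher in wild-type T-ALL and at least 7.33-fold higher in deletion T-ALL.

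**Figure D4:**
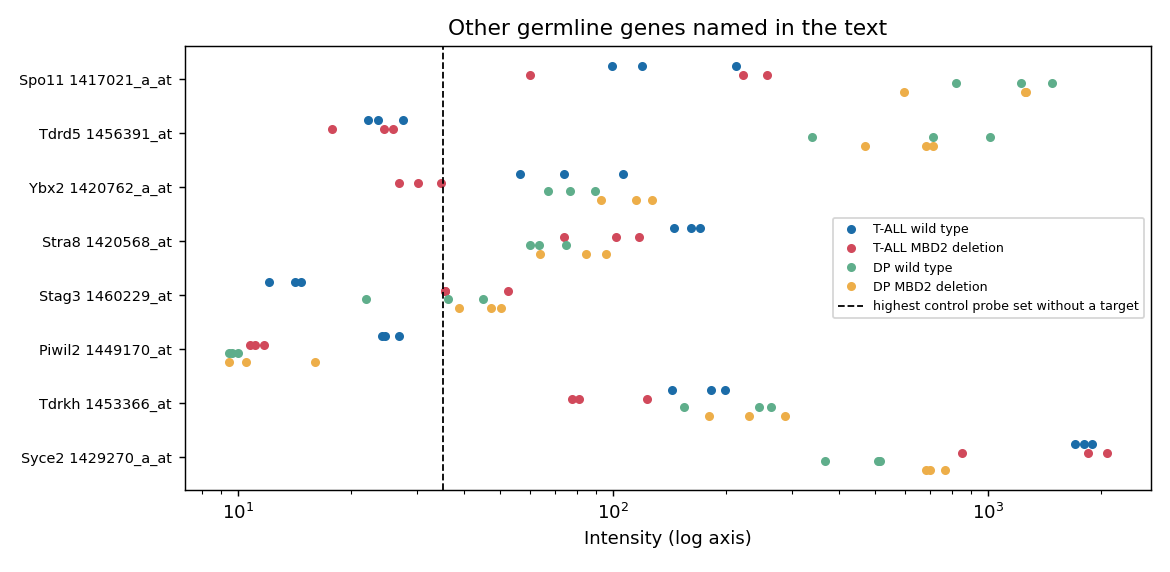
Intensity (log axis) of 8 probe sets of other germline genes named in the text, 1 point per array coloured by group, with background (35.3) as a dashed line. Spo11 and Tdrd5 are higher in thymocytes than in T-ALL, and Ybx2, Stra8 and Tdrkh are lower in deletion than in wild-type T-ALL while Stag3 is higher; Piwil2 lies left of the dashed line on all arrays.

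Genes of the repressors that act on germline promoters were read from 4 lists. In T-ALL, MBD2 deletion called 12.9% of all probe sets tested, and 3 of the 4 lists lay below that share. Of 13 matched genes of DNA methylation and its readers, 3 were called higher and 1 lower, the last being Mbd2 (23.5% of their probe sets). Dnmt3b, the methyltransferase known to methylate germline gene promoters in the embryo, was higher by a log2 difference of 2.05 on 1418351_a_at (SE 0.21, limma adjusted p = 0.00145) and of 1.87 on 1449052_a_at (SE 0.13, limma adjusted p = 0.000249). Tet2 was also higher, by 1.75 on 1438781_at and 1.48 on 1455300_at (limma adjusted p = 0.00134 and 0.00267). Dnmt3a was called higher on 1423065_at and 1423066_at, by 0.96 and 1.06 (limma adjusted p = 0.0238 and 0.0495). Its other probe sets, with differences of 0.46 to 0.71, were not called. Of 11 matched genes of the PRC1.6 and E2F6 list, 1 was called higher and 0 lower (4.17% of probe sets). Of 8 matched genes of H3K9 methylation, 0 were called higher and 1, Cbx1, lower (4.17%). Cbx1 was called on 1436266_x_at alone, by a log2 difference of -0.92 (limma adjusted p = 0.00399). Its other probe sets, with differences of -0.37 to -0.21, were not called. E2f6 was not called between genotypes and was higher in T-ALL than in thymocytes on 2 probe sets, by 1.17 and 1.28 with Mbd2 (limma adjusted p = 0.000407 and 0.00433). Of 11 matched NuRD genes 1, Mta3, was called higher and 0 lower (6.67% of probe sets). The Mta3 probe sets disagree: 1421402_at and 1451352_s_at were higher by log2 differences of 2.17 and 2.51 (limma adjusted p = 0.000354 and 0.00233), while 1443350_at, at 95.4 to 116.8 in all 6 leukaemias, differed by -0.09 (limma adjusted p = 0.664). In thymocytes none of these repressors apart from Mbd2 was called.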

How the data were processed

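Affymetrix arrays of biotin-labelled RNA from 12 samples were read from the deposited table of probe set intensities, which the authors had already summarized on a linear scale (3.07 to 21620). How they were summarized and normalized is not stated in the labels, and no further normalization was applied. Probe sets were named through the platform annotation (34945 with 1 gene symbol, 932 with several, 9160 with none, 64 controls). By gene identifier 34741 matched the RefSeq gene table (GRCm38.p6), and 0 changed symbol. Values were taken as log2(value + 16), so differences of dim probe sets are understated. A probe set was kept if it exceeded the 25th percentile of the array on 3 or more arrays (28372 kept). The test was limma 3.58.1 (lmFit, eBayes; R 4.3.3), each pair of groups in its own fit and the difference of effects over all 12 arrays, with Benjamini-Hochberg adjustment over all probe sets tested and a threshold of 0.05. The code was tested on simulated data. An at-least fold sets the geometric mean of the bright group against the higher of background and the dim value per array. Figures used matplotlib 3.10.9 (Python 3.11.15). The number of arrays limits the precision.

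The members and lists were chosen with earlier results of these data known. The text names all members, Mbd2, up to 4 other germline genes per direction and comparison with the largest differences among those called without overlap, listed repressors, and the 3 nearest genes to each member called. Not every gene that this rule allows is described.

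Deviations from group means of samples with the same replicate number correlated at 0.42, 0.22 and 0.59 between the leukaemia genotypes and at 0.42, 0.45 and 0.59 between the wild-type groups, which met the limit of 0.1 set for pairing. They did not between thymocyte genotypes (-0.51, 0.10 and -0.48) or deletion groups (-0.39, 0.11 and -0.46). Each sample correlated best with its own number between the wild-type groups, but not between the leukaemia genotypes. The labels do not say what equal numbers share. The alternatives covered centring on the 75th percentile, quantile normalization, other filters and constants (1 and 64), 1 probe set per gene, a trended robust variance, array weights, the replicate number or the poly-A set as a block, all 12 arrays in each fit, leaving out each array in turn, and the trpn controls alone as background.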

Additional observations from a re-analysis of the deposited data

Results flagged for a closer look

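The effect of MBD2 deletion differed between T-ALL and thymocytes, by the limma test of the difference itself, for 4 germline probe sets that the text describes. These are 1 of the 3 member probe sets tested and 3 of the 60 of other germline genes (5%), against 9.63% called over the array. Tex15 differed by -2.07 on the log2 scale (SE 0.18, adjusted p = 2.05e-05), with lower values in 3 of 3 deletion leukaemias and higher values in 3 of 3 deletion thymocytes. All thymocyte values of Tex15 lie below background, though above the highest trpn control. The thymocyte genotypes did not pass the threshold (limma adjusted p = 0.983). Ybx2 differed by -1.44 (SE 0.26, adjusted p = 0.00408), being at 30.6 against 78.9 in T-ALL and at 111.8 against 77.8 in thymocytes (deletion against wild-type means). Stra8 differed by -0.88 (SE 0.23, adjusted p = 0.0346), being at 97.8 against 159.0 and at 81.4 against 66.04. Piwil2 differed by -0.72 (SE 0.14, adjusted p = 0.00605), with all 12 arrays below background. It passed the filter on low values through the 3 wild-type leukaemias and 1 other array, that is, by the group where it is high (adjusted p = 0.00328 without the filter), and nothing is drawn from it.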

How the results depend on the processing

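The number of member probe sets called by MBD2 deletion was 1 in T-ALL and 0 in thymocytes under all 18 alternatives run, and 1 for the difference of effects under all 23. The 10 probe sets at background were the same count with the trpn controls alone. Tex15 in T-ALL lay between -2.59 (constant of 1) and -0.90 (constant of 64), and between -1.85 and -1.65 with 1 array left out, with adjusted p from 2.42e-06 to 0.0032. No shift of a dim probe set can be sized below background.

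Signs changed for differences that had not passed the threshold. Brdt 1450178_at in T-ALL ran from -0.15 (without deletion array 1) to 0.36 with 1 array left out, and in thymocytes 0.0455 after blocking on the poly-A set. The difference of effects of Brdt 1444667_at was -0.0044 with arrays centred on the 75th percentile and ran from -0.0058 (without deletion T-ALL array 2) to 0.34 with 1 array left out.

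In the fit with a replicate block, the Tex15 difference in T-ALL stayed at -1.74 (adjusted p = 0.000589), and the member calls in the comparisons that met the limit for pairing did not change. In the deletion groups, where the numbers did not pair, Brdt 1450178_at missed the threshold (adjusted p = 0.0562).

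Counts over all probe sets moved more. Lower calls in T-ALL were 1493, against 2293 centred on the 75th percentile, 2319 with array weights, 2896 with the replicate block, 792 and 657 without wild-type arrays 1 and 2, and 901 without deletion array 2. Higher calls there were 2167, against 1206 without wild-type array 2 and 1417 with 1 probe set per gene, where fewer are tested. In thymocytes they ran from 0 to 12 higher and 0 to 7 lower, against 1 and 2. Between wild-type cell types, calls were 4583 higher and 3845 lower, against 3031 and 2198 with 1 probe set per gene and 2542 lower without wild-type T-ALL array 2. Between deletion groups they were 4429 and 3304, against 2845 and 1695 with 1 probe set per gene. For the difference of effects they were 1775 and 958, against 2781 and 1630 with array weights and 1468 lower centred on the 75th percentile, where higher calls were 49.6% in place of 65.0% of the calls and the median shifted to -0.17. The causes were not tested.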
